A study of Mus musculus with 25 samples.

Results

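Ccr2, Cx3cr1, Ccr1, Cxcr2, Cxcr4, Ccr7 and Ccrl2, the chemokine receptors by which monocytes, macrophages and neutrophils are best known to be steered, were followed through myeloid cells of the injured mouse kidney. The 7 genes were chosen by name. They stand among 18194 genes with a probe set of their own and among the 8341 genes that could be tested, and all 7 passed the detection filter for testing. Each was read from 1 probe set, that of highest mean level on the arrays compared. Values are log2 expression as deposited, and a probe set counts as detected on an array where its deposited detection call is P.

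Chemokine receptors are G protein-coupled receptors that guide leukocytes along gradients of secreted chemokines. Ccr2 brings Ly6C-high monocytes out of the bone marrow and into inflamed tissue, Cx3cr1 marks patrolling monocytes and resident macrophages, Cxcr2 draws in neutrophils, and Cxcr4 retains cells where Cxcl12 is made. Ccr1 serves inflammatory recruitment of several myeloid cells, Ccr7 carries dendritic cells to lymph nodes, and Ccrl2 binds chemerin without itself signalling through G proteins.

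Male C57BL/6 mice aged 8 to 10 weeks had both renal pedicles clamped for 28 min and were studied 4 h, 24 h or 9 days into reperfusion, or were sham-operated without clamping. All animals, sham included, received saline and buprenorphine. Kidney cells positive for CD11b were sorted by surface Ly6C into High, Intermediate and Low gates, and their RNA was amplified before hybridisation. The 8 groups compared were sham High, sham Intermediate and sham Low (2 arrays each) and 4 h High, 4 h Intermediate, 24 h Intermediate, 9 days Intermediate and 9 days Low (3 arrays each). High cells were thus compared in sham and at 4 h, Low cells in sham and at 9 days, and Intermediate cells at every time. The number in each source name was read as the animal's, so gates of the same time came from the same animals; no label says more about how independent the arrays are, and p-values measure the spread between these arrays. The labels of 4 h High replicate 30 hold an extra line mentioning 9 days; its source name decided its group. A further 3 arrays labelled sham 58 High, which may or may not be separate animals, and 1 reference RNA array were left out of the fit.

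The share of probe sets called P, used here as the yield of an array, ran from 1.99% to 40.0% over the 21 arrays. It was below 5% on 3 arrays, sham High replicate 1 and 9 days Intermediate replicates 8 and 13, which are called arrays of low yield. The 9 days Low arrays had yields of 25.3% to 37.3%, the sham Low arrays 27.4% and 40.0%, and the 4 h High arrays 14.4% to 19.0%. The sorting markers followed the labels in part: Ptprc (CD45) was called P on 19 of 21 arrays and Lyz2 on 20, but the kept probe set of Itgam (CD11b) on 11. The probe set annotated to Ly6c1 together with Ly6c2 read 12.57 and 10.37 in sham Low, against 2.83 (call A) and 12.03 in sham High, so it did not follow the order of the sham gates. The labels name the cells macrophages. Of 9 neutrophil genes, 3 were called P on each sham High array, 3 to 6 in 9 days Low and 6 to 9 elsewhere. S100a8 and S100a9 were called P on 21 of 21 arrays and Ltf on 2. In such sorted bulk samples fewer cells of a type and less RNA per cell cannot be told apart.

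The promoters of the genes called below, Cxcr4 and Cx3cr1, are shown with that of Ccrl2, whose values ran closest to those of Cxcr4 among these receptors. They are RefSeq sequences of build GRCm38.p6 from 250 bases before to 50 bases after a gene's start, written 5′ to 3′ along the gene's strand; such windows were matched for 6 of the 7 genes. Capitals mark matches, on either strand, to the GC box (GGGCGG) or the core of the hypoxia response element (ACGTG). Also searched were the PU.1 core (GAGGAA), AP-1 (TGANTCA) and the NF-kB motif, without a match in these 3 windows.
Cxcr4, chr1:128592250-128592549, minus strand: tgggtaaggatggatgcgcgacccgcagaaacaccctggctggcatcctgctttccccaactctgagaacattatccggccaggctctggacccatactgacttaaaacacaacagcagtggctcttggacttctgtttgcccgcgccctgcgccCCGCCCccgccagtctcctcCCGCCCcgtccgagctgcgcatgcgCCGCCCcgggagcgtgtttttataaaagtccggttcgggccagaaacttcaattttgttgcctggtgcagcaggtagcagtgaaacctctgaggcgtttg
Ccrl2, chr9:111057469-111057768, minus strand: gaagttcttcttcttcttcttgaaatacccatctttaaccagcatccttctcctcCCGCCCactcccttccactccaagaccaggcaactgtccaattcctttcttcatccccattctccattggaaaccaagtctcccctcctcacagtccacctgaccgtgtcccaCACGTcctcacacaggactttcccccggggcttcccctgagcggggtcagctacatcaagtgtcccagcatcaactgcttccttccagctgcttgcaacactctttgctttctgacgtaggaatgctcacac
Cx3cr1, chr9:120068247-120068546, minus strand: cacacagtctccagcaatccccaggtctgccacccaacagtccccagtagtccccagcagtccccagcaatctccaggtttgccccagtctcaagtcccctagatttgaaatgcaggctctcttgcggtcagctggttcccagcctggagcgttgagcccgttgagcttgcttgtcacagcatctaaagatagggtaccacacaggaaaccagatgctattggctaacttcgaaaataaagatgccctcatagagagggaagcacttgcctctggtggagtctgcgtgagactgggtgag
The Cxcr4 window held 3 GC boxes, at -95, -75 and -50 from the start, and was 59.3% G or C against a median of 52.7% over 32851 mouse promoter windows. The Ccrl2 window held 1 GC box at -195 and 1 hypoxia core at -82, and the Cx3cr1 window held no match. Of 3 Ccrl2 windows in the table, the one shown begins from the gene's annotated start; the other 2 held no GC box and the hypoxia core at -125 and -99 from their own starts. GC boxes were found in 35.7% of all windows and the hypoxia core in 19.6%. The PU.1 core was found in 28.3%, AP-1 in 7.81% and NF-kB in 1.63%. These matches describe letters only.

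Across the 8 groups, Cxcr4 was high everywhere except in sham High, Cx3cr1 was high in the Low gate, and Cxcr2, Ccr1 and Ccrl2 had their highest group means in 24 h Intermediate cells. Ccr2 was detected on 16 of 21 arrays and Ccr7 on 4. In limma's F test over the groups, Cxcr4 was the only one of the 7 to pass an adjusted p of 0.05, where 3.94% of all genes tested passed. The adjusted p was 0.0662 for Cxcr2, 0.0679 for Cx3cr1, 0.0737 for Ccrl2, 0.215 for Ccr1, 0.269 for Ccr2 and 0.598 for Ccr7. Without the 3 arrays of low yield, sham High kept only replicate 2 and 9 days Intermediate only replicate 9, so the F test of that setting is not read here.

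**Figure D1:**
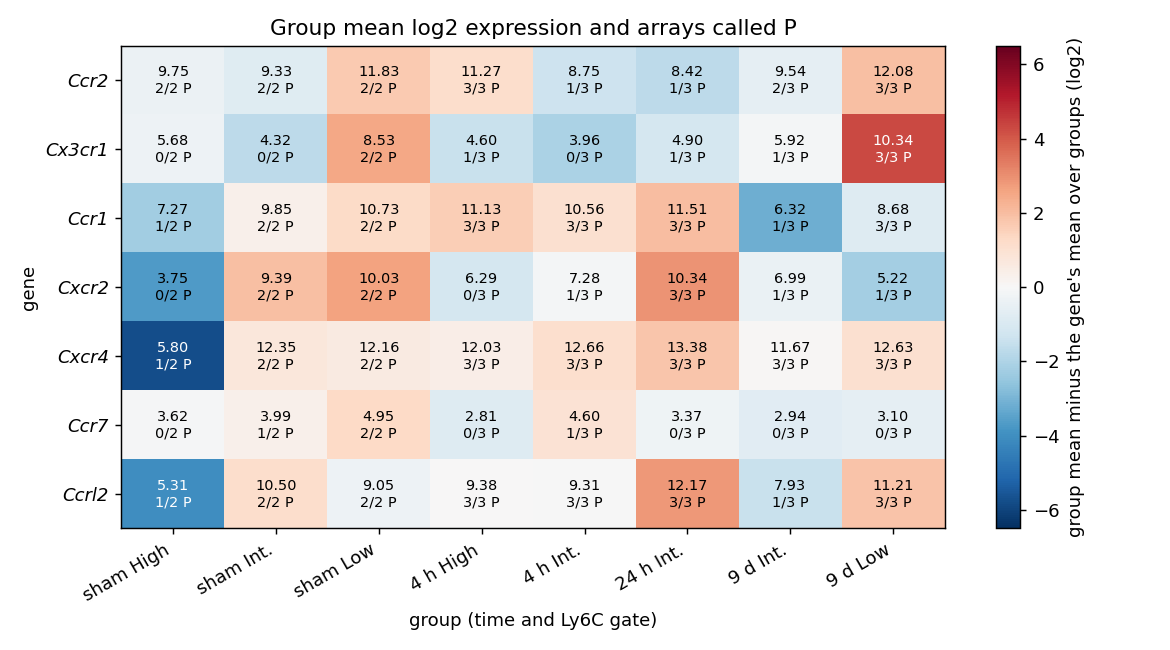
Mean log2 expression of each receptor in the 8 groups, with the number of arrays called P. Colour shows the group mean minus the gene's mean over groups on the log2 scale, so colours compare groups within a gene and not genes with each other; Cxcr4 stands out in sham High (mean 5.80) and Cx3cr1 in 9 days Low (mean 10.34).

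Cxcr4 (chr1:128588199-128592299) was much lower in sham High cells than in any other group. In sham High the log2 values were 7.08 (replicate 1, call A) and 4.52 (replicate 2, call P). In sham Intermediate they were 13.02 and 11.67, and in sham Low 12.09 and 12.24. Both sham High arrays lay below all 4 other sham arrays; High and Low sham values were apart for 54.8% of genes. At 4 h the values were 12.68, 11.41 and 12.01 in High cells and 13.08, 12.35 and 12.55 in Intermediate cells. Intermediate cells had 13.32, 13.60 and 13.24 at 24 h. At 9 days the values were 12.00, 12.44 and 10.58 in Intermediate cells and 12.85, 12.17 and 12.89 in Low cells. All 19 arrays outside sham High were called P and lay between 10.58 and 13.60. The highest group was 24 h Intermediate (13.38 ± 0.19, SD, n = 3). Its values were apart from those of 4 h Intermediate (12.66 ± 0.37, n = 3), next in order, as for 14.0% of genes in either direction. From there down to 9 days Intermediate (11.67 ± 0.97) each group overlapped the next.

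Cxcr4 rose 75.4-fold from sham to 4 h in High cells (log2 difference 6.24 ± 0.86, SE, adjusted p = 0.00360). It was the 1 receptor of 7 called in that comparison, in which 0.432% of all genes were called and the median gene differed by 0.74 (-0.68 with the deposited intensities). Between the sham gates it was 82.4-fold lower in High than in Low cells (log2 difference -6.37 ± 0.94, adjusted p = 0.00874), again the 1 receptor called, with 0.0839% of all genes called and a median gene at -1.81. In the F test Cxcr4 ranked 16 of 8341 genes (F = 13.8, adjusted p = 0.00363). The rise from sham to 4 h was larger in High than in Intermediate cells by 5.92 ± 1.21, which did not pass (adjusted p = 0.131, 0.0120% of genes called). Without the arrays of low yield it was 7.20, a value for which sham High was replicate 2 alone.

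Every Cxcr4 call rests on the 2 sham High arrays. On replicate 1 Ptprc and Lyz2 were called A and 1 of 8 genes of a list for myeloid cells of any kind was called P, against 7 of 8 on replicate 2. That list had a median difference of 3.07 from sham to 4 h in High cells, with 8 of 8 above 0. The ratio of 3′ to 5′ Gapdh signal, a sign of RNA quality, was 298 and 28.3 on the sham High arrays, 431 on sham Intermediate replicate 1 and 0.923 to 19.7 on the other 18. The part of these in the Cxcr4 differences was not tested. The 3 sham 58 High arrays, which carry the same gate label, had 12.39, 13.48 and 12.34, all called P and within the range of the groups other than sham High. With their mean added to sham High, the difference from 4 h High was 3.92 ± 1.33 (adjusted p = 0.573), that between the sham gates -4.05 ± 1.48 (adjusted p = 0.479) and the F test's adjusted p 0.229. The difference between the sham gates also lost its call with the animal as a fixed block (-6.37 ± 1.40, adjusted p = 0.271). That fit used only the sham High and sham Low arrays. It has fewer residual degrees of freedom than the main model, so the lost call cannot be laid to pairing. Without sham Low replicate 2, which leaves 1 array in that group, the difference was -6.29. Yield and Cxcr4 correlated at r 0.31 over 21 arrays, the sham High arrays having yields of 1.99% and 12.9%. With yield as a covariate the difference between the sham gates lost its call, and the part of yield was otherwise not tested.

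**Figure D2:**
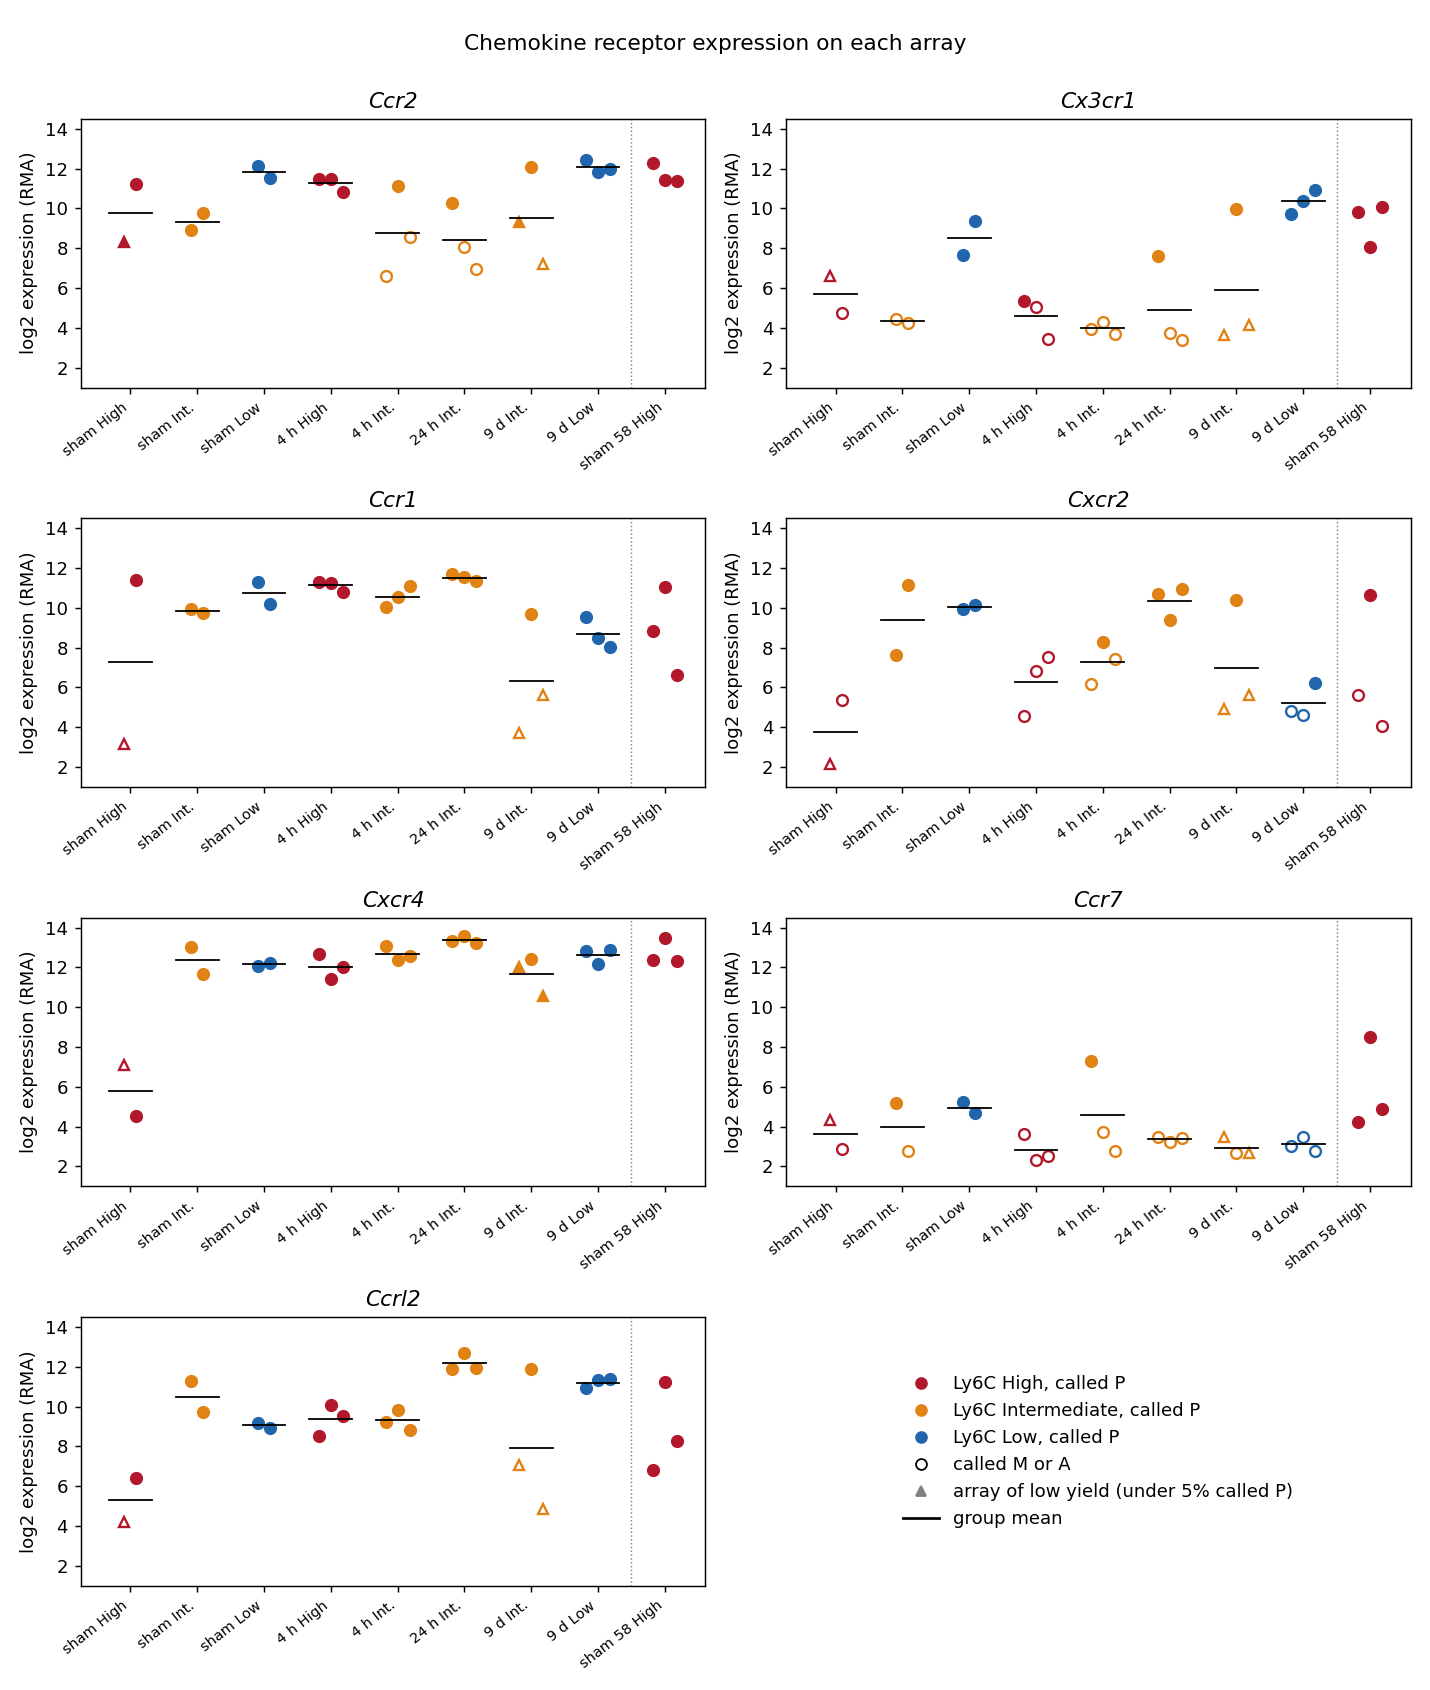
Log2 expression of the 7 receptors on each array, by group, with gate colours, filled points for call P, open points for M or A, triangles for arrays of low yield and bars for group means; the 3 sham 58 High arrays stand right of the dotted line and were left out of the fit. Cxcr4 is low on the 2 sham High arrays and between 10.58 and 13.60 on the other 19, and Cx3cr1 is above 7 on both sham Low and all 3 of the 9 days Low arrays.

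Cx3cr1 (chr9:120048683-120068296), the receptor of the membrane-bound chemokine fractalkine, was highest in the Low gate. In 9 days Low cells the log2 values were 9.74, 10.36 and 10.94, and in sham Low cells 7.68 and 9.39, all called P. In 4 h High cells they were 5.35 (P), 5.04 (A) and 3.42 (A), and in sham High cells 6.62 and 4.73, neither called P. In Intermediate cells Cx3cr1 was called P on 0 of 2 arrays in sham and 0 of 3 at 4 h, between 3.71 and 4.42. It was called P on 1 of 3 arrays at 24 h (7.58, the others 3.74 and 3.36) and on 1 of 3 at 9 days (9.95, the others 3.65 and 4.16). The 9.95 came from replicate 9, the only 9 days Intermediate array that was not of low yield.

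Cx3cr1 was 53.4-fold higher in 9 days Low than in 4 h High cells (log2 difference 5.74 ± 1.39, adjusted p = 0.0435), the 1 receptor of 7 called there, where 1.88% of all genes were called and the median gene differed by 0.41. Gate and time differ together in that comparison and cannot be told apart. Between the gates of 9 days Intermediate minus Low was -4.42 ± 1.39 (adjusted p = 0.116). In sham, where neither High array was called P, High read 7.23-fold below Low (log2 difference -2.85 ± 1.70, adjusted p = 0.323). The 95% interval of that difference ran from -6.44 to 0.73, and the other Cx3cr1 probe set differed by 0.76 ± 1.13. From sham to 9 days the Low gate differed by 1.81 ± 1.55 (adjusted p = 0.862), with values that did not overlap, as for 30.9% of genes. The difference between the 9 days gates rests on the arrays of low yield: it was -6.44 (adjusted p = 0.00331) without 9 days Intermediate replicate 9, -0.39 (adjusted p = 1.00) without the arrays of low yield and -1.05 (adjusted p = 0.999) with yield as a covariate.

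The call stood close to its threshold. It was kept when any of 7 arrays was left out and lost with any of the other 14, which were all 9 days Low, 4 h High, 4 h Intermediate, sham Intermediate and sham Low arrays and 24 h Intermediate replicate 8 (differences of 5.15 to 6.11, adjusted p up to 0.159). Cx3cr1 also followed the yield of the arrays (Pearson r 0.75 over 21 arrays and 0.83 over the 18 without low yield), and with yield as a covariate the difference was 3.37 ± 1.40 (adjusted p = 0.254). The other Cx3cr1 probe set was called P on 3 of 21 arrays and differed by 1.36 ± 0.92 (adjusted p = 0.517), an alternative chosen after seeing the data.

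The tissue macrophage markers, like Cx3cr1, read higher in 9 days Low than in 4 h High cells. Of 9 tested, 9 were above 0 and 0 were called, with a median difference of 2.65 against 0.41 over all genes tested. In summed signal they did not follow Cx3cr1 in every group. The summed signal of 9 such genes, among them Csf1r, C1qa and Adgre1, was 189936 to 273147 in 9 days Low, with all 9 called P, and 56855 to 92066 in 4 h High, with 8 or 9 called P. The sum was also 133652 to 239802 in 4 h Intermediate and 165255 to 188718 in sham Intermediate cells. Cx3cr1 was called P there on 0 of 3 and 0 of 2 arrays. These sums are of deposited intensities scaled on each array, a different measure from the log2 values of Cx3cr1. As mean log2 of the list, 4 h Intermediate had 8.96 to 9.76, near 4 h High with 8.97 to 9.22. Sham Intermediate had 9.03 and 10.39, and 9 days Low 11.70 to 12.38. The mean log2 of the list correlated with Cx3cr1 at r 0.63 over 21 arrays and 0.88 over the 18. For 9 genes of a neutrophil list the summed signal was 38560 to 58127 in 9 days Low and 330526 to 960371 in 4 h High. Of the 8 tested, 4 were called lower in 9 days Low, where 1.88% of all genes were called, and their median difference was -4.56. The part of such cell makeup in the Cx3cr1 difference was not tested. Yield entered only as the covariate given above. The yields of 9 days Low and 4 h High did not overlap, so its part cannot be told apart from gate and time. The correlations are over arrays that share animals, gates and depth of amplification.

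**Figure D3:**
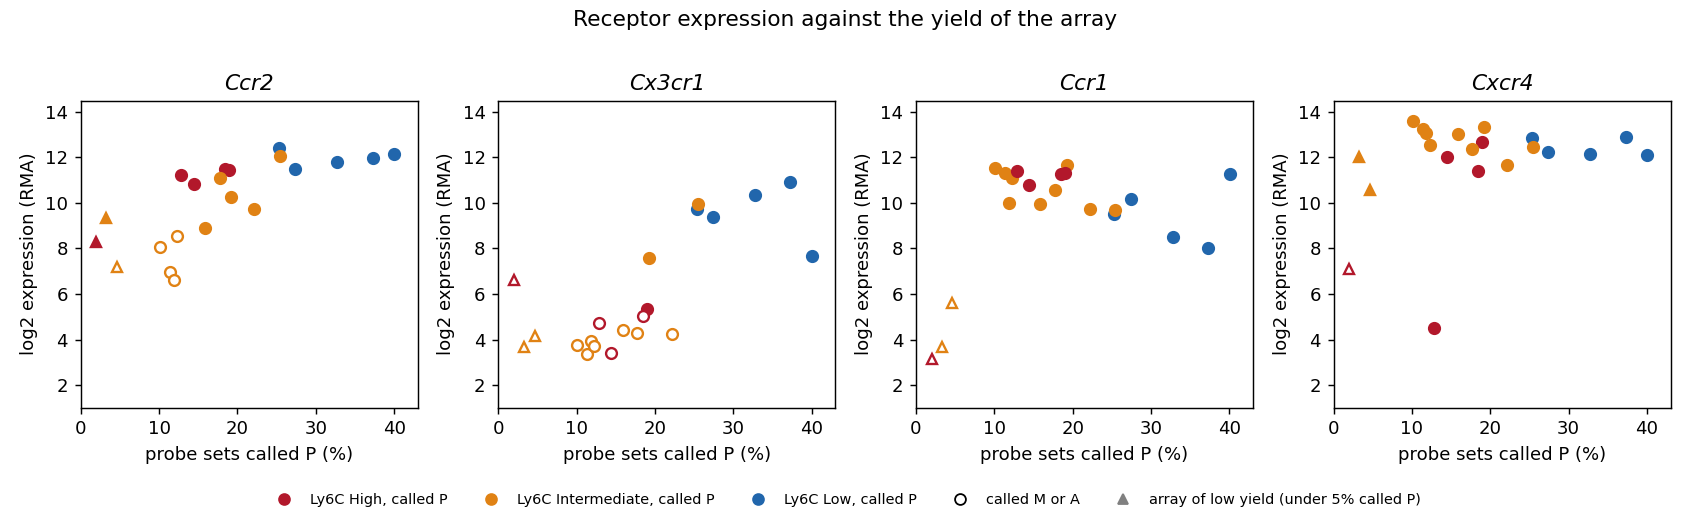
Log2 expression of Ccr2, Cx3cr1, Ccr1 and Cxcr4 (vertical axis) against the percentage of probe sets called P on the array (horizontal axis), 21 arrays coloured by gate, open where the gene was not called P and triangular where yield was below 5%. Ccr2 and Cx3cr1 are higher on arrays of higher yield (r 0.75 for each), while Cxcr4 lies between 10.58 and 13.60 across yields outside sham High.

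Ccr2 (chr9:124101918-124109140), the receptor of Ccl2, was high in both Low groups and at 4 h in High cells. It read 12.43, 11.82 and 11.99 in 9 days Low, 12.15 and 11.51 in sham Low, and 11.46, 11.49 and 10.84 in 4 h High, all called P. In Intermediate cells it was uneven. The 4 h arrays had 6.62, 11.10 and 8.54 with 1 called P, the 24 h arrays 10.26, 8.06 and 6.95 with 1 called P, and the 9 days arrays 9.33, 12.08 and 7.21 with 2 called P. Sham Intermediate had 8.91 and 9.75 and sham High 8.29 and 11.22, all called P.

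No comparison called Ccr2. Between the gates at 4 h, High minus Intermediate was 2.51 ± 1.26 (adjusted p = 0.865) with overlapping values, and at 9 days Intermediate minus Low was -2.54 ± 1.26 (adjusted p = 0.264). The 9 days Low and 4 h High arrays differed by 0.81 ± 1.26 (adjusted p = 0.801). Ccr2 also followed yield (r 0.75 over 21 arrays, 0.71 over 18).

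The 4 probe sets of Ccr2 gave different pictures. The kept one and the next in mean level correlated at r 0.50 over 21 arrays. On the latter, called P on 17 arrays, 4 h High had a mean of 10.99 ± 1.00 (SD, n = 3) and 4 h Intermediate 10.00 ± 2.00, while 9 days Low had 7.40 ± 1.19. Its 9 days Low minus 4 h High difference was -3.60 ± 1.69 (adjusted p = 0.315), opposite in sign to the kept probe set's, and its 4 h minus sham difference in Intermediate cells was 5.19 ± 1.89 (adjusted p = 0.491) against -0.58 ± 1.41. The other 2 probe sets were called P on 11 and 9 arrays and correlated with the kept one at 0.39 and 0.66. The sign of these Ccr2 differences thus depended on the probe set; this comparison was added after seeing the data.

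**Figure D4:**
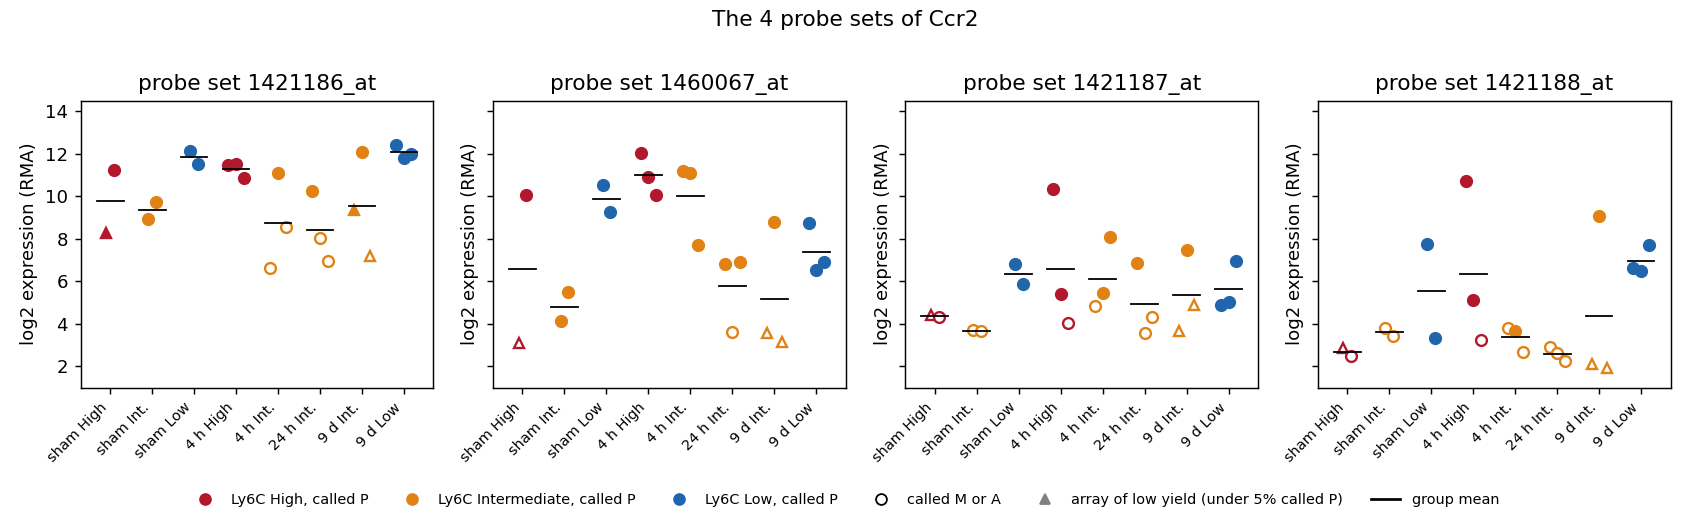
Log2 expression on each of 21 arrays for the 4 probe sets of Ccr2, by group, with gate colours, filled points for call P, open points for M or A, triangles for arrays of low yield and bars for group means. On the kept probe set (far left) 9 days Low is the highest group (mean 12.08), and on the next one 4 h High is (mean 10.99) with 9 days Low at 7.40.

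Ccr1 (chr9:123962126-123968692), which binds Ccl3, Ccl5, Ccl6 and Ccl9, was high at 4 h, at 24 h and in sham Intermediate and Low cells. Its means were lower at 9 days. The 4 h High arrays had 11.32, 11.27 and 10.81, those of Intermediate cells 10.01, 10.56 and 11.11 at 4 h, then 11.67, 11.53 and 11.32 at 24 h, all called P. At 9 days it read 9.53, 8.49 and 8.03 in Low cells, all called P, and 3.68 (A), 9.69 (P) and 5.60 (A) in Intermediate cells. In sham it read 9.95 and 9.75 in Intermediate, 11.29 and 10.18 in Low, and 3.15 (A) and 11.40 (P) in High cells, where the low value is from the array of low yield.

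From 24 h to 9 days in Intermediate cells Ccr1 differed by -5.18 ± 1.57 (adjusted p = 0.159), with values that did not overlap, as for 12.4% of genes. None of the 7 receptors was called there by limma, where 0.384% of all genes were called. At an unadjusted p under 0.05 were 4 of the 7 receptors and 962 of the 8341 genes tested. Leaving out either sham High array made Ccr1 a call (SE 1.09, adjusted p = 0.0328 each), and leaving out 9 days Intermediate replicate 9 gave -6.86 (adjusted p = 0.0115). Without the arrays of low yield it was -1.82 (adjusted p = 0.381). The 2 Intermediate arrays with call A at 9 days are those of low yield. From 4 h High to 9 days Low, Ccr1 differed by -2.45 ± 1.57 (adjusted p = 0.492), with no overlap, as for 29.4% of genes. No array of low yield is in these groups, so leaving those arrays out changes only the estimated spread and not this difference. The other Ccr1 probe set, called P on 18 arrays too, differed by -0.88 ± 1.42 (adjusted p = 0.811). Ccr1 and the tissue macrophage list correlated at r 0.54 over 21 arrays and -0.80 over the 18 of higher yield, and Ccr1 and Cx3cr1 at -0.08 and -0.63.

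Cxcr2 (chr1:74153994-74161246), the receptor of Cxcl1, Cxcl2 and related neutrophil attractants, was highest in 24 h Intermediate and sham Low cells. It read 10.70, 9.37 and 10.94 at 24 h, all called P, and 6.16 (A), 8.26 (P) and 7.43 (M) at 4 h in Intermediate cells. Every 24 h array lay above every 4 h array, as for 14.0% of genes in either direction, and the difference was 3.06 ± 1.35 (adjusted p = 0.619). In 4 h High cells it read 4.55, 6.83 and 7.51 with none called P. In Low cells it read 9.94 and 10.12 in sham, both called P, and 4.79 (A), 4.63 (A) and 6.24 (P) at 9 days.

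The Low gate thus differed by -4.81 ± 1.51 from sham to 9 days (adjusted p = 0.158), without overlap, as for 30.9% of genes in either direction. No receptor was called by limma in this comparison on all 21 arrays, and 0.995% of all genes were. At an unadjusted p under 0.05 were 1 of the 7 receptors and 876 of the 8341 genes tested. The neutrophil list, counted without Cxcr2, had a summed signal of 133685 to 303398 in sham Low and 38560 to 58127 in 9 days Low, and its mean log2 correlated with Cxcr2 at r 0.64 over 21 arrays. Of its 8 genes tested, 2 were called lower at 9 days, and the median difference was -3.98 against -0.12 over all genes tested. Its part in the Cxcr2 difference was not tested. Sham High cells had 2.13 and 5.37, neither called P. The lowest value called P for any probe set was 2.34 and 1.47 on these arrays. Raising values to it moved only the 2.13, and sham High was then 72.3-fold below sham Low. Over the 21 arrays the Cxcr2 probe set was called P only at 6.24 or more, so this fold is against undetected values. As read, the log2 difference was -6.28 ± 1.65 (adjusted p = 0.0883). The Intermediate arrays of sham had 7.64 and 11.14, and those of 9 days 4.93, 10.39 and 5.64, the middle value being replicate 9 and the only one called P.

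Ccrl2 (chr9:111054834-111057518), the atypical chemerin receptor, was highest at 24 h. Intermediate cells had 11.86, 12.68 and 11.95 at 24 h and 9.25, 9.85 and 8.83 at 4 h, all called P. The 24 h arrays all lay above the 4 h arrays, as for 14.0% of genes in either direction, and the difference was 2.86 ± 1.24 (adjusted p = 0.605). None of the 7 was called between these times by limma, and 0.120% of all genes were. At an unadjusted p under 0.05 were 2 of the 7 and 603 of the 8341 genes tested. At 9 days the values were 10.95, 11.32 and 11.36 in Low cells, all called P, and 7.06 (A), 11.87 (P) and 4.85 (A) in Intermediate cells. The Low arrays of 9 days lay above those of sham, 9.18 and 8.92, as for 30.9% of genes in either direction (difference 2.16 ± 1.39, adjusted p = 0.715).

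In High cells Ccrl2 read 8.52, 10.08 and 9.54 at 4 h against 4.21 (A) and 6.41 (P) in sham, without overlap, as for 31.1% of genes. That difference was 4.07 ± 1.39 (adjusted p = 0.197). From 24 h to 9 days in Intermediate cells it was -4.24 ± 1.24 (adjusted p = 0.144), and -6.21 (adjusted p = 6.43e-04) without replicate 9 of 9 days, which leaves 2 arrays of low yield there. Without the arrays of low yield it was -0.29 (adjusted p = 0.968). Sham Intermediate cells had 11.28 and 9.71. Ccrl2 and Cxcr4 correlated at r 0.72 over 21 arrays and 0.70 over the 18, the highest of the 21 pairs among these receptors in both cases. Next at 21 arrays came Ccr2 and Cx3cr1 (r 0.67, and 0.69 over the 18). Ccrl2 and Cxcr4 both had their lowest group mean in sham High, whose replicate 2 is among the 18. Their correlation without the sham High arrays was not computed.

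Ccr7 (chr11:99144199-99155077), the lymph node homing receptor of dendritic cells, was barely detected. It was called P on both sham Low arrays (5.22 and 4.69), on 1 of 2 sham Intermediate arrays (5.21) and on 1 of 3 arrays of 4 h Intermediate (7.31, replicate 30). The other 17 of the 21 arrays compared read 2.31 to 4.35 with none called P. The 3 sham 58 High arrays had 4.22, 8.51 and 4.88, all called P. No difference passed, and the F test's adjusted p was 0.598.

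**Figure D5:**
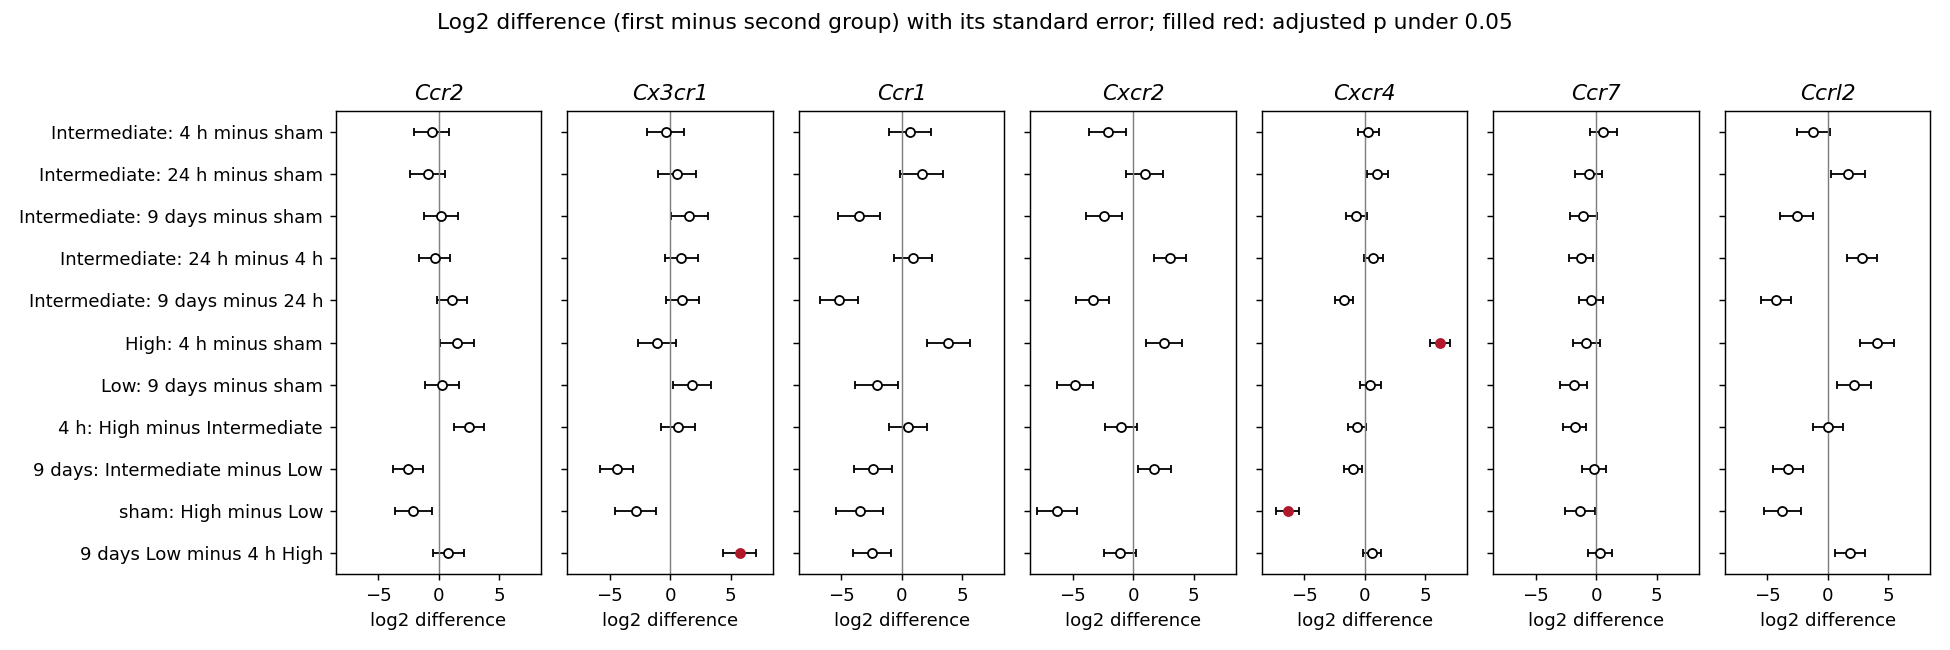
Log2 difference between groups (first minus second) with its standard error for each receptor in 11 comparisons; red points passed an adjusted p of 0.05. Those that passed are Cxcr4 in 4 h minus sham High (6.24) and sham High minus Low (-6.37), and Cx3cr1 in 9 days Low minus 4 h High (5.74).

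Among the other comparisons limma called none of the 7 receptors. In Intermediate cells against sham, none had an unadjusted p under 0.05 at 4 h, 24 h or 9 days. Of the 8341 genes tested, 589, 803 and 1051 had one, and 0.216%, 0.456% and 0.683% were called. Between High and Intermediate cells at 4 h none had an unadjusted p under 0.05, where 500 of the 8341 genes had one and 0.00% were called. Between Intermediate and Low cells at 9 days 2 of the 7 had an unadjusted p under 0.05, Cx3cr1 and Ccrl2. So did 1699 of the 8341 genes tested, and 0.623% of all genes were called. The effect of 9 days against sham was compared between Low and Intermediate cells, and the difference of effects passed for none of the 7 (0.00% of genes called). It was 4.73 ± 1.96 for Ccrl2 (adjusted p = 0.599), the 1 receptor of 7 at an unadjusted p under 0.05, where 615 of the 8341 genes were. Without 9 days Intermediate replicate 9 it was 6.70 (adjusted p = 0.0448).

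The ligands of these receptors were measured in the same cells. Of 18 listed, 16 had a probe set and 13 were tested. In the F test 4 passed: Ccl7, a Ccr2 ligand (adjusted p = 0.0263), and the Cxcr2 ligands Cxcl1 (0.0370), Cxcl3 (0.0375) and Ppbp (0.0457). Cxcl1 rose from 4.61 ± 1.57 (SD, n = 2) in sham Low to 10.18 ± 0.44 (n = 3) in 9 days Low (log2 difference 5.57 ± 1.26, adjusted p = 0.0420), the only ligand called between 2 groups. In Intermediate cells Cxcl3 had means of 10.93 ± 0.55 at 4 h and 11.82 ± 1.41 at 24 h, against 9.10 ± 0.66 in sham Intermediate cells. It had 9.22 ± 0.42 in 4 h High, 4.40 ± 2.04 in 9 days Low and 2.52 ± 0.76 in sham High. In sham Low it had 6.41 ± 5.04 and in 9 days Intermediate 5.19 ± 3.96. Ppbp was also highest in 24 h Intermediate, at 8.83 ± 1.08, where Cxcr2 had its highest mean. Ccl7 had its highest means in 4 h High (9.55 ± 0.53), 24 h Intermediate (8.79 ± 0.35) and 9 days Low (8.48 ± 2.57). The highest 9 days Low array read 10.99. Ccl7 had 6.58 ± 0.48 in sham Low and was lowest in sham Intermediate, at 2.68 ± 0.05. Cx3cl1, Cxcl12 and Cxcl5, which kidney or stromal cells are known to make, were called P on 0 of 21 arrays.

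Over the 13 ligands tested the median difference was 1.43 from sham to 24 h in Intermediate cells, with 12 above 0, against -0.07 over all genes tested. From 24 h to 9 days it was -2.87, with 11 below 0, against -0.16. From sham to 4 h in High cells it was 3.10, with 12 above 0, against 0.74, and the list for myeloid cells of any kind had 3.07, with 8 of 8 above 0, whose part was not tested. None of these ligands was called in those 3 comparisons.

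Of 18 other chemokine receptors 16 had a probe set, and 5 were tested, Ccr4, Cxcr3, Ackr3, Ackr4 and Cmklr1. None was called in any comparison or in the F test. Cmklr1, the signalling receptor of chemerin, which Ccrl2 binds as well, was called P on 8 arrays and differed by 3.52 ± 1.53 between 9 days Low and 4 h High (adjusted p = 0.266). Of 24 genes of signalling from the receptors 21 had a probe set and 20 were tested, and none was called. The nearest were Rgs1, which shortens G protein signals, at -5.37 ± 1.34 between Intermediate and Low at 9 days (adjusted p = 0.0670) and 5.84 ± 1.50 between 9 days and sham in Low cells (adjusted p = 0.0701). Between sham High and sham Low all 20 were below 0, and their median was -3.47 where that of all genes tested was -1.81. In the same comparison the median was -2.89 for the list for myeloid cells of any kind, with 7 of 8 below 0, and -4.67 for the tissue macrophage list, with 9 of 9 below 0, and their part was not tested.

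The genes whose values ran most like each receptor over the 21 arrays, among all genes tested, were the following, with Pearson's r as a description of arrays that share animals and yield. For Cxcr4 they were Socs3, a feedback inhibitor of cytokine signalling, at 0.84, Dazap2 at 0.83 and Jdp2 at 0.83. Cx3cr1 ran with Ubash3b at 0.91, Rab3il1 at 0.90 and Rars at 0.89. Ccr1 ran with Ube2a, Sra1 and Ostf1, each at 0.95 over 21 arrays and at 0.77, 0.74 and 0.90 over the 18 without low yield. Ccrl2 ran with the platelet factor gene Pf4 and with Tprgl, both at 0.88, and with Nfil3 at 0.87. Cxcr2 ran with Cdk2ap2 at 0.85, and with Mxd1 and Txnip at 0.84. The genes nearest to Ccr2 were Fh1, Eid1 and Apex1, each at 0.86, and for Ccr7 they were Ninl at 0.81, Afm at 0.79 and Zfp503 at 0.75.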

How the data were processed

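Arrays of 45101 probe sets carried deposited log2 values, made by the authors with RMA in Affymetrix Expression Console per the submitters' processing notes, and deposited signal intensities scaled to a trimmed mean (2%) of 500; the RMA version and the intensity algorithm are not given in the sources used here. Present, marginal and absent calls (P, M, A) were deposited beside them. The annotation table named exactly 1 gene for 34958 probe sets (18194 genes), several for 932 and none for 9211. For each gene the probe set with the highest mean over 21 arrays was kept, and 8341 genes were tested, those with call P on 2 or more arrays of some group. A group-means model over the 21 arrays was fitted in limma 3.58.1 (R 4.3.3; lmFit, eBayes; 13 residual and 3.93 prior degrees of freedom, median residual SD 1.64), two-sided, with Benjamini-Hochberg adjustment over all genes tested and calls at adjusted p under 0.05 without a minimum fold. Values beside ± are standard errors for differences and SDs for group means. The script was tested on simulated data. Arrays give no read depth, and their number and yield limit the precision.

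The 7 receptors, the gene lists and the rule for named genes (the 7 in every group, listed genes that were called or nearest to it, and the 3 genes of highest r with each) were chosen with earlier results of these data known. Alternatives were the log2 of the deposited intensities plus 1, quantile normalization, centring, no filter, call P throughout a group, averaged probe sets, yield as a covariate, the animal as a block, the sham 58 arrays, arrays of low yield left out, and each array left out in turn. Arrays with the same number and time come from the same animal, as read from the source names, and their residuals correlated at -0.07 to 0.06.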

Additional observations from a re-analysis of the deposited data

Results flagged for a closer look

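The 3 arrays labelled sham 58 High were in no comparison, and on them 4 of the 7 receptors were called P on every array and lay above both sham High arrays, as did 33.5% of the 8341 genes tested. The lowest of the 3 values was 11.39 for Ccr2 (sham High 8.29 and 11.22), 8.07 for Cx3cr1 (sham High 6.62 and 4.73, neither called P), 12.34 for Cxcr4 (sham High 7.08 and 4.52) and 6.83 for Ccrl2 (sham High 4.21 and 6.41). Their yields were 29.3% to 33.6%, against 1.99% and 12.9% for the sham High arrays. Cx3cr1 on these High arrays, 8.07 to 10.08, was in the range of the Low gate. The difference between the sham 58 and sham High arrays was not tested, since the label does not say whether the 3 are separate animals.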

How the results depend on the processing

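The 7 receptors gave 98 results. Of 1099 values under alternatives other than leaving out 1 array, 1015 kept direction and side of the threshold, 58 changed sign without being called either way, 17 lost a call, 9 gained one and none reversed a call. In counts of receptors called, High 4 h minus sham (1) fell to 0 with deposited intensities, quantile normalization and the sham 58 mean, and was 1 to 2 when an array was left out. Sham High minus Low (1) fell to 0 with these 3, the replicate block with the animal fixed and the yield covariate (0 to 3 leaving out an array). In these settings the Cxcr4 values were 6.40 (adjusted p = 0.185) and 4.24 (0.130) for intensities and quantiles in High cells, and -5.63 (0.517), -4.45 (0.156) and, with yield, -6.63 (0.285) between the sham gates. 9 days Low minus 4 h High (1) fell to 0 with quantile normalization, no filter, the mean of probe sets, the covariate, the sham 58 mean and the other probe sets, and was 2 without low-yield arrays (0 to 1 leaving out an array). The F test (1) gave 2 with intensities or the covariate, 4 without low-yield arrays, 0 with quantiles or sham 58 (1 to 4 leaving out an array). Low 9 days minus sham (0) and the 4 h difference of effects (0) each gave 1 without low-yield arrays. Leaving out an array gave 0 to 1 for Intermediate 9 days minus sham and both differences of effects, and 0 to 3 for Intermediate 9 days minus 24 h and minus Low, each highest without 9 days Intermediate replicate 9. With the animal as a random replicate block (consensus correlation -0.03) every count stayed as reported. The fixed block, possible within sham, 4 h and 9 days, was fitted to the arrays of the groups compared alone. It changed no count other than that of the sham gates. Over all genes, counts ranged from 0 to 1290 around 52 for 9 days Intermediate minus Low, from 1 to 516 around 36 for High 4 h minus sham, from 0 to 458 around 7 for sham High minus Low, from 48 to 336 around 157 for 9 days Low minus 4 h High, from 5 to 206 around 83 for Low 9 days minus sham, and from 146 to 1164 around 329 for the F test. Around 18, 38, 57, 10 and 32 for the Intermediate comparisons, in the order 4 h, 24 h and 9 days minus sham, 24 h minus 4 h and 9 days minus 24 h, they reached as high as 69, 100, 442, 28 and 557, and as low as 0, 7, 0, 1 and 0. The median of all genes moved by up to 0.93 with quantile normalization, in sham High minus Low (-1.81 to -0.88), and with deposited intensities from 0.74 to -0.68 in High 4 h minus sham and from -0.16 to 1.12 in Intermediate 9 days minus 24 h. The count was 0 to 4 around 0 for 4 h High minus Intermediate, and for the differences of effects 0 to 24 around 0 (9 days) and 0 to 189 around 1 (4 h). Low-yield arrays limit what can be read at 9 days in Intermediate cells and in sham High. Leaving them out kept only replicate 9 and replicate 2 there, so those groups rest on a single array each in that setting. Differences between the other groups keep their values in it, and only the estimated spread changes.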
